A study of Mus musculus with 30 samples.

Results

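The autophagy genes described here are 38 genes chosen by name from the 54532 genes of the count table, by their known role and not by a threshold on measured values. They comprise 5 genes of the ULK initiation complex, 6 of the class III phosphatidylinositol 3-kinase complexes, 5 for membrane supply and its lipid effectors, 11 of the conjugation machinery, the 5 measured ATG8 genes and 6 cargo receptors. In Protocols 1A, 1B and 1C, where microglia came from newborn mice, 19 of them were lower and 9 higher with HMGB1 in all 3 protocols, where 24% and 22% of all genes tested were so, with the receptor gene Sqstm1 rising most and the kinase gene Ulk1 among the largest falls. In Protocols 2 and 3, with microglia of adult mice, none of the 38 passed the same test. Few of all genes did, at 1.21% higher and 0.283% lower in Protocol 2 and 0.123% and 0% in Protocol 3. With the replicate number, taken to pair these libraries, as a block in the fit, 4 passed in Protocol 2 and 1 in Protocol 3. The shares of all genes were then 4.63% higher and 3.32% lower in Protocol 2 and 1.7% and 0.468% in Protocol 3.

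Macroautophagy is the process by which a cell encloses part of its cytoplasm in a membrane sac, the autophagosome, and delivers it to the lysosome. The ULK kinase complex starts the process when nutrients or energy run short and is held back by the kinase complex mTORC1. A lipid kinase complex then marks the membrane with phosphatidylinositol 3-phosphate (PI3P), lipid is supplied to the growing membrane, and a pair of ubiquitin-like conjugation reactions attach ATG8 proteins such as LC3 to it. Cargo receptors bind both the ATG8 proteins and the items to be degraded, such as ubiquitin-tagged proteins or mitochondria. Microglia, the resident macrophages of the brain, use parts of this machinery to clear engulfed material and to limit inflammasome activity.

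The study compared 5 ways of obtaining mouse microglia (genotype C57/B6), each with cells given HMGB1 for 4 h and untreated Control cells, in 3 libraries per group and 30 in all. HMGB1 is a chromatin protein that acts as a danger signal once it leaves the cell, and its concentration is stated in the methods only for Protocol 3. In Protocol 1, microglia were shaken from mixed glial cultures of pups aged 0 to 3 days. The cultures ran 10 days in 1A and 1B and 21 days in 1C, and the growth factor GM-CSF (0.5 ng/ml) was left out of 1B alone. Each of these suspensions came from 5 pups, replicates came from different litters (those of Protocols 2 and 3 are labelled biological replicates), and the shaken cells rested overnight in serum-free medium. In Protocol 2, cells of adults aged 6 to 8 weeks were selected by adherence from 3 pooled brains and spent 7 days in medium holding 100 ng/ml of M-CSF and as much GM-CSF. They were then detached with trypsin, plated in the same serum-free medium and used the following day. In Protocol 3, adults of the same age gave cells that were isolated with CD11b beads and used without culture. Protocols 1 and 3 therefore differ in age, culture and isolation at the same time, and these cannot be told apart. Since all are bulk samples, fewer cells of a type and less RNA per cell cannot be told apart either. The paper reports lower RNA yield and lower RNA integrity scores for the uncultured adult cells than for the cultured adult cells. The part of RNA quality in the results below was not tested.

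The libraries held 14151983 to 28564757 counts, and the 38 genes took 0.217 to 0.596% of the counts in cultured cells and 1.253 to 1.499% in Protocol 3. Sqstm1 alone made up most of that Protocol 3 share. It held 278599 of the 21782428 counts of the first Protocol 3 Control library, against 15979 of 21497681 in the first of Protocol 1A. The higher share in Protocol 3 therefore does not describe the other genes as a set. No replicate pair agreed within sampling noise (lowest chi-square per gene 5.24). Levels are given as CPM, a gene's counts scaled to a common library total, adjusted between libraries by the trimmed mean of M values (TMM), and every autophagy gene had at least 30 counts in every library. The microglial markers Tmem119 and P2ry12 stood at 0.217 to 5.92 and 4.87 to 41.8 CPM in cultured cells. In Protocol 3 they stood at 43.0 to 83.5 and 179 to 230 CPM. Csf1r and Cx3cr1 were also lower in all cultured libraries, but other microglia and macrophage markers were not. In Protocol 2 Controls, Itgam had 432 to 478 CPM and Aif1 124 to 164 CPM. In Protocol 3 Controls they had 86.6 to 89.2 and 38.5 to 42.3 CPM. Both were lower than that in 1B Controls. Ptprc had 498 to 564 CPM in 1A Controls and 248 to 264 CPM in 1B Controls, against 347 to 395 CPM in Protocol 3 Controls. The summed level of 7 neutrophil markers was at most 23.4 CPM in cultured cells, against 339 to 725 CPM in Protocol 3, where all 7 exceeded 1 CPM. The sum of 7 fibroblast and mural markers was 191 to 404 CPM in Protocol 2, 26.0 to 89.7 CPM in 1B and 1C, at most 14.9 CPM in 1A and at most 25.9 CPM in Protocol 3. TMM factors moved with treatment in the neonatal cells, at 0.731 to 0.909 in HMGB1 libraries and 1.14 to 1.25 in Control libraries. The part of the other cells in the results below was not tested.

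The promoters of Sqstm1, the gene that rose most, and of Ulk1, Ulk2, Atg13 and Atg101, which are 4 of the 5 ULK complex genes that fell in the neonatal cells, are shown here as the sequence context of these results. The windows run from 250 bases before to 50 bases after the gene start in RefSeq's annotation of GRCm38.p6, printed along the gene's strand. Short motifs were searched on both strands, and capitals mark where they match: the E-box CACGTG bound by the TFEB family, the antioxidant element TGACNNNGC, and the NF-kB form (3 G, any 5 bases, 2 C). The Sqstm1 window is chr11:50210771-50211070 on the minus strand and the Ulk1 window is chr5:110810032-110810331 on the minus strand. The Ulk2 window is chr11:61855043-61855342 on the minus strand, the Atg13 window is chr2:91710543-91710842 on the minus strand, and the Atg101 window is chr15:101284051-101284350 on the plus strand.
Sqstm1: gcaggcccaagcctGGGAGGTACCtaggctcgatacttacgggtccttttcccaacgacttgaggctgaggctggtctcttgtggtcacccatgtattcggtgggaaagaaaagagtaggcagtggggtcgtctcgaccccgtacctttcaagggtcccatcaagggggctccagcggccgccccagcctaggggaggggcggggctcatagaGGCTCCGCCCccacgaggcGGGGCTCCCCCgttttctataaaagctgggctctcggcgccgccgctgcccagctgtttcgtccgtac
Ulk1: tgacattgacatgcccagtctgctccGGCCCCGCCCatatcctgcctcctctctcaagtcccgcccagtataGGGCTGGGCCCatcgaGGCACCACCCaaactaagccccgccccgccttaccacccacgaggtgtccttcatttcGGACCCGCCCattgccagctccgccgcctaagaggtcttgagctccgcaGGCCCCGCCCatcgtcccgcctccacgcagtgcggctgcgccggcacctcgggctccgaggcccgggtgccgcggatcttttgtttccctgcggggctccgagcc
Ulk2: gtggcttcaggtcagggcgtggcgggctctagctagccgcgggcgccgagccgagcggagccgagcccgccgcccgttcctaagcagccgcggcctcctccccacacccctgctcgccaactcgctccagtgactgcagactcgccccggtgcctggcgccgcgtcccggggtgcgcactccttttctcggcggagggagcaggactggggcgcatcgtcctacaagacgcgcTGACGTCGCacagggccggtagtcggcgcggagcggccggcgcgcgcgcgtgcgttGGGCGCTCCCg
Atg13: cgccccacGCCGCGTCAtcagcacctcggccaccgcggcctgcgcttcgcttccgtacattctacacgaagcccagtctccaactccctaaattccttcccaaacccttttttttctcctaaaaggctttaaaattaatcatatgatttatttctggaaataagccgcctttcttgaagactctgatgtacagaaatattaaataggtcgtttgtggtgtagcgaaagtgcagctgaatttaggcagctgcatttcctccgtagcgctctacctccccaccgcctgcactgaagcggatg
Atg101: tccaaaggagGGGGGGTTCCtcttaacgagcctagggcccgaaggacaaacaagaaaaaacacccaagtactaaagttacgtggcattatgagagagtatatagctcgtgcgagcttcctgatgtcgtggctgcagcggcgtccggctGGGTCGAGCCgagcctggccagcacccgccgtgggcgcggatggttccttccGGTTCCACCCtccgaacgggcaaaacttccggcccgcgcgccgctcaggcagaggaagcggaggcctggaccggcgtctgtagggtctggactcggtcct

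The NF-kB form matched in the Sqstm1 window at -236, -37 and at the overlapping positions -18 and -17 from the gene start, and in the Ulk1 window at 6 positions on either strand. In the Atg101 window it matched at -240, -102 and -50, and in the Ulk2 window at 40 on both strands. The antioxidant element matched in the Ulk2 window at -17 and in the Atg13 window at -242, and not in the 300 bases shown for Sqstm1. A match is a description and no sign of binding, and the lack of one says only that these letters are not in the window. Windows were found for 31 of the 38 genes, as 35 windows. The NF-kB form was in 20 of these 35 windows (57.1%), against 50.8% of all 32851 windows. The E-box was in 4 of them (11.4%), those of Atg14, Atg3, Atg5 and Atg7, against 7.15% of all windows, and the antioxidant element also in 4 (11.4%), those of Atg13, Map1lc3b, Tax1bp1 and Ulk2, against 12.4% of all windows.

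Per kilobase of gene model, Sqstm1 had the highest level of the 38 genes, with a mean of 1107 CPM per kb over the 30 libraries. Gabarap, an ATG8 gene, followed with 213 CPM per kb and Gabarapl1 with 51.5 CPM per kb. At the other end stood Wipi1, a PI3P-binding effector, with 2.24 CPM per kb. The spread over the 10 groups was widest for 4 genes. The ratio of the highest to the lowest group mean CPM was 27.5 for Sqstm1, 22.3 for Atg16l2, 12.1 for Atg2a and 10.5 for Atg4a. It was below 9 for the other 34 genes and lowest for the protease gene Atg4b, at 1.42.

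The first question was how HMGB1 moved these genes within each protocol. It was tested with edgeR's quasi-likelihood test and Benjamini-Hochberg (BH) adjustment over all genes, with adjusted p below 0.05 as a pass and no minimum fold change. In Protocol 1A, 11 genes were higher and 20 lower with HMGB1, against a background of 29.7% higher and 31.6% lower over 13489 genes tested. In Protocol 1B, 10 were higher and 23 lower, against 29.8% higher and 32% lower of 13598 genes. In Protocol 1C, 11 were higher and 22 lower, against 28.4% higher and 31.8% lower of 14328 genes. The share of higher genes was thus close to that of all genes in these protocols and the share of lower genes was above it. The median log2 fold change of the 38 genes was -0.28, -0.37 and -0.46 in Protocols 1A, 1B and 1C, where that of all genes was -0.04, -0.02 and -0.04. With a log2 fold change of at least 1 in size also required, 3, 8 and 11 of the 38 genes remained in 1A, 1B and 1C, against a background of 24.2%, 26.6% and 31.5% of all genes under the same rule, and their share was not above it.

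**Figure D1:**
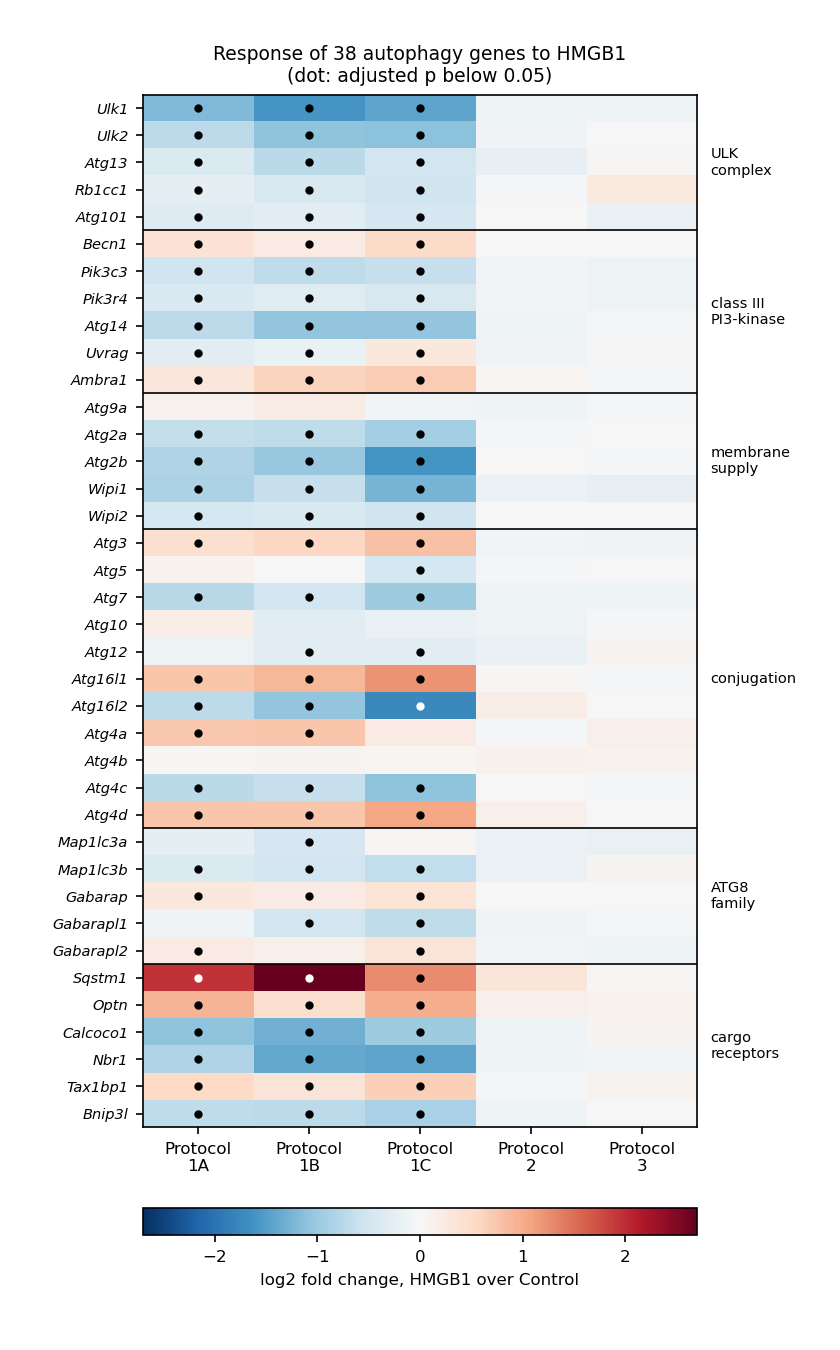
Heat map of the log2 fold change with HMGB1 against Control for the 38 autophagy genes (rows, grouped by role) in the 5 protocols (columns), with dots for adjusted p below 0.05 in edgeR's quasi-likelihood test. Dots fill most cells of Protocols 1A, 1B and 1C, in the lower direction for all 5 ULK complex genes, and there are none in Protocols 2 and 3 in this fit without the replicate block.

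The calls largely recurred in the 3 neonatal protocols. Of the 38 genes, 9 were higher in all 3 and 19 lower in all 3, where 22% and 24% of the 12719 genes tested in all 3 were so. Uvrag was the single gene with opposite calls, where 1.4% of all genes had them. Atg9a, Atg10 and Atg4b passed in none of the 3. The values of HMGB1 and Control libraries did not overlap for 33, 35 and 34 of the 38 genes in 1A, 1B and 1C, against a background of 66.9%, 68.2% and 66.9% of all genes tested.

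Some marker sums of other cells also moved with HMGB1 in the neonatal libraries, in both directions. The sum of 7 endothelial markers was 257 to 339 CPM in HMGB1 libraries of Protocol 1C, where 4 of the 7 exceeded 1 CPM, against 109 to 134 CPM and 3 of 7 in Control libraries. The sum of the 7 neutrophil markers was 14.3 to 23.4 CPM in HMGB1 libraries of Protocol 1A, where 2 exceeded 1 CPM and 4 were at 0 in every library, against 4.50 to 5.37 CPM in Control libraries, where 1 exceeded 1 CPM and 2 were at 0. The sum of 6 astrocyte markers was 48.4 to 56.1 CPM in HMGB1 libraries of 1A, against 28.03 to 38.97 CPM in Control libraries. That of 7 oligodendrocyte markers was lower with HMGB1 in 1A, at 101.9 to 111.7 CPM against 125.5 to 139.4 CPM. In 1C it was higher, at 244.6 to 266.7 CPM against 173.1 to 238.4 CPM. Endothelial sums overlapped between treatments in 1A and 1B, and fibroblast and mural sums in 1B and 1C. The 7 microglia and macrophage markers summed to 2626 to 2687 CPM in HMGB1 libraries of 1A, against 1683 to 1935 CPM in Control libraries. The members of that sum moved differently. Mean CPM with HMGB1 against Control was 1127 against 524 for Ptprc, 1345 against 1095 for Csf1r and 37.5 against 24.7 for Aif1. Cx3cr1 was lower, at 16.3 against 33.4 CPM, and so was Tmem119, at 0.435 against 1.24 CPM. Itgam, at 117 against 120 CPM, and P2ry12, at 8.50 against 8.72 CPM, were nearly level. The part of these shifts in the responses below was not tested.

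The ULK complex starts autophagy, and all 5 of its genes fell with HMGB1 in each of the 3 neonatal protocols. Of all genes tested in the 3, 24% were lower in each. Ulk1, the kinase, had 22.8, 18.6 and 23.03 CPM in HMGB1 libraries of Protocol 1A, against 46.2, 48.2 and 49.4 CPM in Control libraries. In Protocol 1B it had 20.6, 15.8 and 16.8 CPM with HMGB1, against 56.2, 54.2 and 49.9 CPM in Control. In Protocol 1C it had 17.98, 19.8 and 17.1 CPM with HMGB1, against 49.9, 49.5 and 48.5 CPM in Control. No treated library came near the Control levels in any of the 3 protocols. The log2 fold changes of Ulk1 were -1.19 ± 0.09, -1.59 ± 0.10 and -1.42 ± 0.10 (SE) in 1A, 1B and 1C (edgeR, adjusted p between 7.83e-08 and 1.88e-07). Its relative Ulk2, also a kinase, ranged over 30.8 to 47.0 CPM with HMGB1 and 53.7 to 98.2 CPM in Control across these protocols, and fell with log2 fold changes of -0.70 ± 0.08, -1.08 ± 0.07 and -1.11 ± 0.09 (adjusted p between 1.74e-07 and 2.69e-06).

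The scaffold genes of the complex moved less. Atg13, which links the kinases to their partners, had log2 fold changes of -0.38 ± 0.08, -0.72 ± 0.07 and -0.49 ± 0.11 in 1A, 1B and 1C (edgeR, adjusted p between 7.26e-06 and 0.00316). Rb1cc1, the large scaffold also called FIP200, had -0.25 ± 0.07, -0.43 ± 0.10 and -0.53 ± 0.12, and its call in 1A was lost in 3 of 12 alternatives, among them the fit without the second HMGB1 library, with adjusted p up to 0.0657. Atg101, which stabilizes Atg13, had -0.35 ± 0.10, -0.31 ± 0.09 and -0.45 ± 0.13, and its call in 1B was lost without the first or the second Control library, with adjusted p up to 0.0519. The falls of the scaffolds were therefore smaller than those of the kinases, although that difference between genes was not tested.

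The class III complexes make PI3P, and here the genes went in both directions. Their catalytic core fell: Pik3c3, the lipid kinase, had log2 fold changes of -0.54 ± 0.08, -0.69 ± 0.10 and -0.62 ± 0.11 in 1A, 1B and 1C (edgeR, adjusted p between 3.23e-05 and 4.32e-04), and its regulatory partner Pik3r4 had -0.42 ± 0.08, -0.33 ± 0.07 and -0.42 ± 0.10 (adjusted p between 5.57e-04 and 0.00243). Atg14 encodes the subunit that directs the kinase to autophagosomes. It had 9.18, 7.11 and 7.32 CPM in HMGB1 libraries of Protocol 1B, against 18.1, 16.2 and 14.98 CPM in Control libraries. In Protocol 1A it had 8.84, 9.29 and 12.1 CPM with HMGB1, against 15.2, 16.3 and 16.9 CPM in Control, and in Protocol 1C 8.37, 8.51 and 7.46 CPM, against 19.5, 14.7 and 16.8 CPM. The groups did not overlap in any of the 3 protocols. Its log2 fold changes were -0.71 ± 0.13, -1.06 ± 0.14 and -1.06 ± 0.15 (adjusted p between 5.04e-05 and 3.81e-04).

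Becn1, which encodes Beclin 1, the regulatory subunit of these complexes, rose, with log2 fold changes of 0.38 ± 0.07, 0.23 ± 0.06 and 0.52 ± 0.08 (edgeR, adjusted p between 1.91e-04 and 0.00949), though its call in 1B was lost without the filter on low counts (adjusted p 0.0632). Counts of Becn1 are less certain, since 43.9% of its exon bases overlap the gene Cntd1 on the opposite strand and the strand setting of the counting is not stated. Cntd1 itself had a mean of 0.421 CPM, against 61.9 CPM for Becn1, both without TMM scaling. Ambra1, which binds Beclin 1 and promotes its activity, rose in all 3 protocols, with 0.30 ± 0.07, 0.59 ± 0.07 and 0.69 ± 0.08 (adjusted p between 2.16e-05 and 0.00214). Uvrag encodes the subunit that takes the place of Atg14 in the complex on endosomes. Its levels were 68.7, 72.9 and 67.5 CPM with HMGB1 in Protocol 1C, against 59.5, 51.3 and 62.0 CPM in Control, and 54.3, 56.1 and 58.3 CPM with HMGB1 in Protocol 1A, against 65.3, 66.9 and 71.7 CPM in Control. It was higher with HMGB1 in 1C, at 0.28 ± 0.09 (adjusted p = 0.0203), and lower in 1A, at -0.30 ± 0.07 (adjusted p = 0.00126), and in 1B, at -0.17 ± 0.07 (adjusted p = 0.0496). The difference between the responses of 1C and 1A was 0.55 ± 0.13 on the log2 scale (adjusted p = 0.00377). Of its exon bases, 17.6% overlap Gm45187 on the opposite strand, at a mean of 0.181 CPM. The call in 1B was lost in 9 of 12 alternatives, with adjusted p up to 0.201, and that in 1C without the second Control or the second HMGB1 library, with adjusted p up to 0.102.

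Of the genes for membrane supply, 4 of 5 fell in each neonatal protocol, where 24% of all genes tested in the 3 were lower in each. Atg2a and Atg2b encode the lipid-transfer proteins that feed the growing membrane. Atg2b had 14.9, 12.1 and 10.4 CPM in HMGB1 libraries of Protocol 1C, against 42.6, 35.6 and 37.6 CPM in Control libraries. In Protocol 1A it had 21.5, 22.6 and 19.7 CPM with HMGB1, against 36.5, 36.5 and 36.9 CPM, and in Protocol 1B 15.96, 14.8 and 18.1 CPM, against 34.2, 32.3 and 34.4 CPM in Control. No treated library reached any Control library. The log2 fold changes were -0.81 ± 0.08, -1.03 ± 0.09 and -1.62 ± 0.14 for Atg2b and -0.65 ± 0.07, -0.68 ± 0.07 and -0.92 ± 0.08 for Atg2a in 1A, 1B and 1C (edgeR, adjusted p between 1.34e-06 and 2.80e-06 for Atg2b and between 1.04e-06 and 1.43e-05 for Atg2a). Both PI3P-binding effectors fell: Wipi1 with -0.85 ± 0.13, -0.62 ± 0.13 and -1.25 ± 0.17 (adjusted p between 4.77e-05 and 0.00150) and Wipi2, which recruits the conjugation complex to the membrane, with -0.47 ± 0.07, -0.41 ± 0.07 and -0.54 ± 0.08 (adjusted p between 6.72e-05 and 2.79e-04). Atg9a, whose protein moves lipid between membrane leaflets and seeds the membrane, did not pass, with 0.10 ± 0.07, 0.21 ± 0.09 and -0.07 ± 0.13 and adjusted p between 0.0741 and 0.682. Of its exon bases, 31.8% overlap Gm29253 on the same strand, a gene listed at 0 CPM.

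The conjugation machinery attaches ATG8 proteins to the membrane, and it split. With HMGB1, 4, 4 and 3 of its 11 genes were higher and 3, 4 and 5 lower in 1A, 1B and 1C. That is 36.4%, 36.4% and 27.3% higher and 27.3%, 36.4% and 45.5% lower. Of all genes tested, 29.7%, 29.8% and 28.4% were higher and 31.6%, 32% and 31.8% lower. The split is therefore not read as a trait of this machinery. Atg16l1, which directs the conjugation to the membrane, rose and its relative Atg16l2 fell. Atg16l1 had 90.1, 96.3 and 103.8 CPM in HMGB1 libraries of Protocol 1C, against 39.9, 44.7 and 41.7 CPM in Control libraries, and Atg16l2 had 4.05, 3.61 and 3.39 CPM with HMGB1, against 10.9, 15.2 and 11.2 CPM in Control. In Protocol 1A, Atg16l1 had 63.3, 73.3 and 67.2 CPM with HMGB1, against 40.7, 40.6 and 37.98 CPM in Control, and Atg16l2 had 9.81, 8.61 and 8.64 CPM, against 15.6, 14.1 and 13.5 CPM. In Protocol 1B, Atg16l1 had 69.96, 70.4 and 68.8 CPM with HMGB1, against 38.1, 35.6 and 39.0 CPM, and Atg16l2 had 10.6, 9.52 and 7.61 CPM, against 19.2, 18.7 and 19.8 CPM in Control. The groups were apart for both genes in all 3 protocols, in opposite directions. The log2 fold changes were 0.75 ± 0.07, 0.90 ± 0.06 and 1.21 ± 0.09 for Atg16l1 (edgeR, adjusted p between 3.50e-07 and 8.78e-07) and -0.70 ± 0.12, -1.06 ± 0.13 and -1.74 ± 0.19 for Atg16l2 (adjusted p between 8.71e-06 and 2.25e-04).

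The enzymes of the 2 conjugation reactions also differed among themselves. Atg7, the shared activating enzyme, fell with log2 fold changes of -0.76 ± 0.08, -0.52 ± 0.09 and -0.96 ± 0.08 (edgeR, adjusted p between 9.89e-07 and 3.51e-04), while Atg3, the enzyme that hands ATG8 to lipid, rose with 0.43 ± 0.06, 0.56 ± 0.06 and 0.80 ± 0.08 (adjusted p between 5.99e-06 and 3.76e-05). Atg12, the ubiquitin-like partner of Atg5, fell in 1B and 1C, at -0.31 ± 0.08 and -0.31 ± 0.10, and had -0.13 ± 0.11 in 1A (adjusted p = 0.339). Its call in 1C was lost in the DESeq2 Wald test and without the second HMGB1 library, with adjusted p up to 0.102. Atg5 fell in 1C alone, at -0.47 ± 0.13 (adjusted p = 0.00749), and the response of 1C was below that of 1A, with a difference of -0.59 ± 0.15 (adjusted p = 0.00582). Atg10, the enzyme that joins Atg12 to Atg5, had 0.18 ± 0.18, -0.29 ± 0.15 and -0.19 ± 0.20 and passed in none.

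The Atg4 proteases, which trim ATG8 proteins before conjugation and release them from membrane afterwards, divided too. Atg4d rose, with 36.5, 35.9 and 37.3 CPM in HMGB1 libraries of Protocol 1C, against 14.6, 19.2 and 19.9 CPM in Control libraries, and log2 fold changes of 0.74 ± 0.09, 0.74 ± 0.10 and 1.03 ± 0.12 in 1A, 1B and 1C (edgeR, adjusted p between 7.32e-06 and 6.91e-05). Of its exon bases, 19.3% overlap Kri1, a gene of comparable level, so reads of the 2 may be mixed. Atg4a rose in 1A and 1B, at 0.73 ± 0.09 and 0.74 ± 0.11, and had 0.22 ± 0.11 in 1C (adjusted p = 0.114). The response of 1C was below that of 1A, with a difference of -0.55 ± 0.13 (adjusted p = 0.00507). Atg4c fell with -0.72 ± 0.09, -0.62 ± 0.11 and -1.08 ± 0.11 (adjusted p between 6.57e-06 and 6.80e-04), and Atg4b, at 30.4 to 37.1 CPM in Protocol 1A, had 0.06 ± 0.08, 0.08 ± 0.07 and 0.06 ± 0.09 and did not pass.

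The ATG8 proteins coat the autophagosome and bind the receptors. Gabarap, the most abundant of the family per kilobase, had 539, 468 and 487 CPM in HMGB1 libraries of Protocol 1A, against 402, 387 and 422 CPM in Control libraries, and rose with log2 fold changes of 0.28 ± 0.07, 0.23 ± 0.06 and 0.36 ± 0.09 in 1A, 1B and 1C (edgeR, adjusted p between 0.00333 and 0.0107). Its call in 1B was lost without the filter on low counts, without the second Control or without the first HMGB1 library, with adjusted p up to 0.0626. Map1lc3b, the gene of LC3B, the usual marker of autophagosomes, had 108, 98.1 and 110.1 CPM with HMGB1 in Protocol 1A, against 133, 128 and 148 CPM in Control, and fell with -0.39 ± 0.07, -0.51 ± 0.08 and -0.67 ± 0.09 (adjusted p between 4.44e-05 and 3.27e-04). These 2 genes thus moved apart within the family. Gabarapl1 fell in 1B and 1C, at -0.51 ± 0.11 and -0.68 ± 0.09, and had -0.13 ± 0.11 in 1A (adjusted p = 0.342), with 28.3% of its exon bases overlapping 1700101I11Rik, at a mean of 0.477 CPM. Gabarapl2 rose in 1A and 1C, at 0.22 ± 0.09 and 0.34 ± 0.10, with the call in 1A lost in 5 of 12 alternatives and adjusted p up to 0.156, and Map1lc3a fell in 1B, at -0.45 ± 0.10 (adjusted p = 0.00256).

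Expressed as shares of the summed ATG8 level per kilobase, Gabarap made up 76.9 ± 0.470% (SD, n = 3) of the family in HMGB1 libraries of Protocol 1A and 71.4 ± 0.681% in Control libraries. In Protocol 1B its share was 73.2 ± 1.11% with HMGB1 and 64.1 ± 1.66% in Control, and in Protocol 1C 75.5 ± 1.40% with HMGB1 and 64.4 ± 1.04% in Control. The lowest treated share was above the highest Control share in each of these protocols. The shares of Gabarapl1 were 11.2 ± 0.699% with HMGB1 and 13.9 ± 0.842% in Control in 1A, and 11.7 ± 0.751% with HMGB1 and 20.5 ± 1.44% in Control in 1C.

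**Figure D2:**
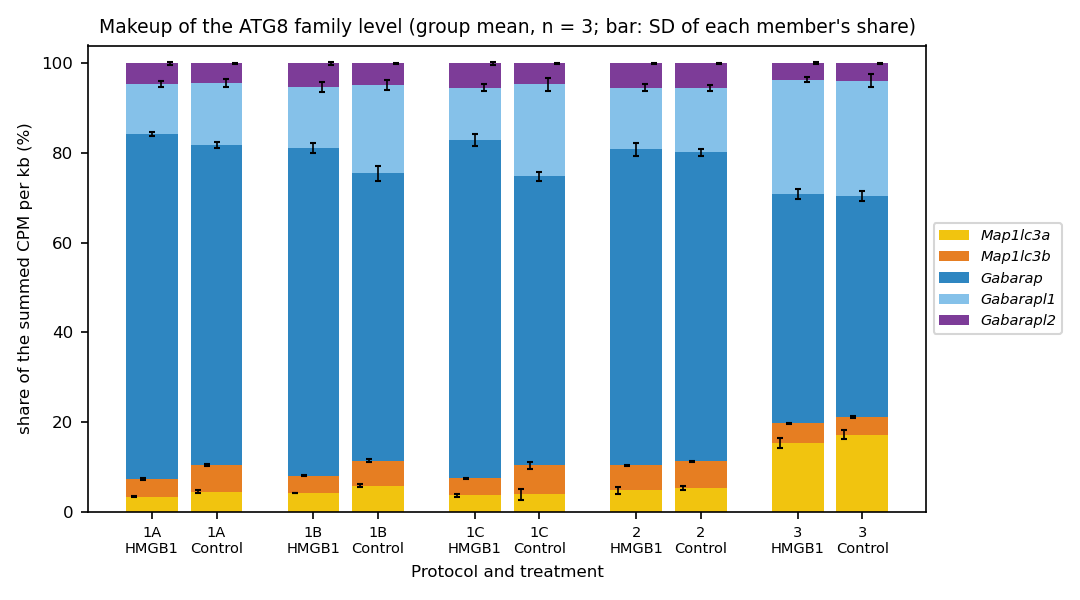
Stacked bars of the share (percent) that each of the 5 ATG8 genes takes of their summed CPM per kilobase in the 10 groups, as means of 3 libraries, with HMGB1 left of Control in each protocol. Gabarap is the largest share throughout, between 49.3% in Protocol 3 Control and 76.9% in Protocol 1A HMGB1.

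Among the cargo receptors, 3 of 6 rose and 3 fell, and the same 3 in each neonatal protocol. Of all genes tested in the 3 protocols, 22% were higher and 24% lower in each. Sqstm1 encodes p62, which binds ubiquitin-tagged cargo and is itself degraded by autophagy, and is also a transcriptional target of the stress factor NRF2. It had 4452, 4149 and 4109.5 CPM in HMGB1 libraries of Protocol 1B, against 748, 637 and 608 CPM in Control libraries. In Protocol 1A it had 2636, 2045 and 2161 CPM with HMGB1, against 594, 588 and 549 CPM in Control, and in Protocol 1C 1249, 1255 and 933 CPM with HMGB1, against 476, 463 and 478 CPM in Control. All treated libraries were above all Control libraries, by the widest margin in 1B. The log2 fold changes were 1.96 ± 0.09, 2.68 ± 0.09 and 1.29 ± 0.12 in 1A, 1B and 1C (edgeR, adjusted p between 1.69e-09 and 3.23e-06). Optn, a receptor for bacteria and mitochondria, had 51.5, 46.6 and 52.7 CPM with HMGB1 in Protocol 1A, against 26.5, 23.2 and 28.3 CPM in Control, and rose with 0.92 ± 0.09, 0.42 ± 0.09 and 0.99 ± 0.09 (adjusted p between 6.00e-07 and 0.00236). Tax1bp1, a ubiquitin-binding receptor, rose with 0.54 ± 0.07, 0.35 ± 0.06 and 0.65 ± 0.11 (adjusted p between 6.46e-06 and 5.19e-04).

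The receptors that fell were Nbr1, Calcoco1 and Bnip3l. Nbr1, a partner of p62 in binding ubiquitin-tagged cargo, had 44.4, 42.3 and 44.1 CPM in HMGB1 libraries of Protocol 1C, against 122, 114 and 119 CPM in Control libraries, and 65.9, 55.1 and 59.4 CPM with HMGB1 in Protocol 1A, against 107, 105 and 100.2 CPM in Control. In Protocol 1B it had 52.9, 46.9 and 53.2 CPM with HMGB1, against 147, 125 and 126 CPM in Control. The groups were well apart each time, in the direction opposite to Sqstm1. Its log2 fold changes were -0.82 ± 0.08, -1.37 ± 0.08 and -1.43 ± 0.08 in 1A, 1B and 1C (edgeR, adjusted p between 3.55e-08 and 4.25e-07). Calcoco1, a receptor for endoplasmic reticulum, had 21.9, 21.9 and 19.4 CPM with HMGB1 in Protocol 1B, against 54.8, 51.4 and 48.6 CPM in Control, and fell with -1.09 ± 0.10, -1.29 ± 0.08 and -0.96 ± 0.11 (adjusted p between 2.20e-07 and 1.15e-05). Bnip3l, a mitochondrial receptor also called NIX, fell with -0.68 ± 0.07, -0.71 ± 0.08 and -0.88 ± 0.11 (adjusted p between 1.85e-06 and 2.58e-05). A processed pseudogene, Bnip3l-ps, is listed at a mean of 8.33 CPM, so some reads may have been split between the copies.

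**Figure D3:**
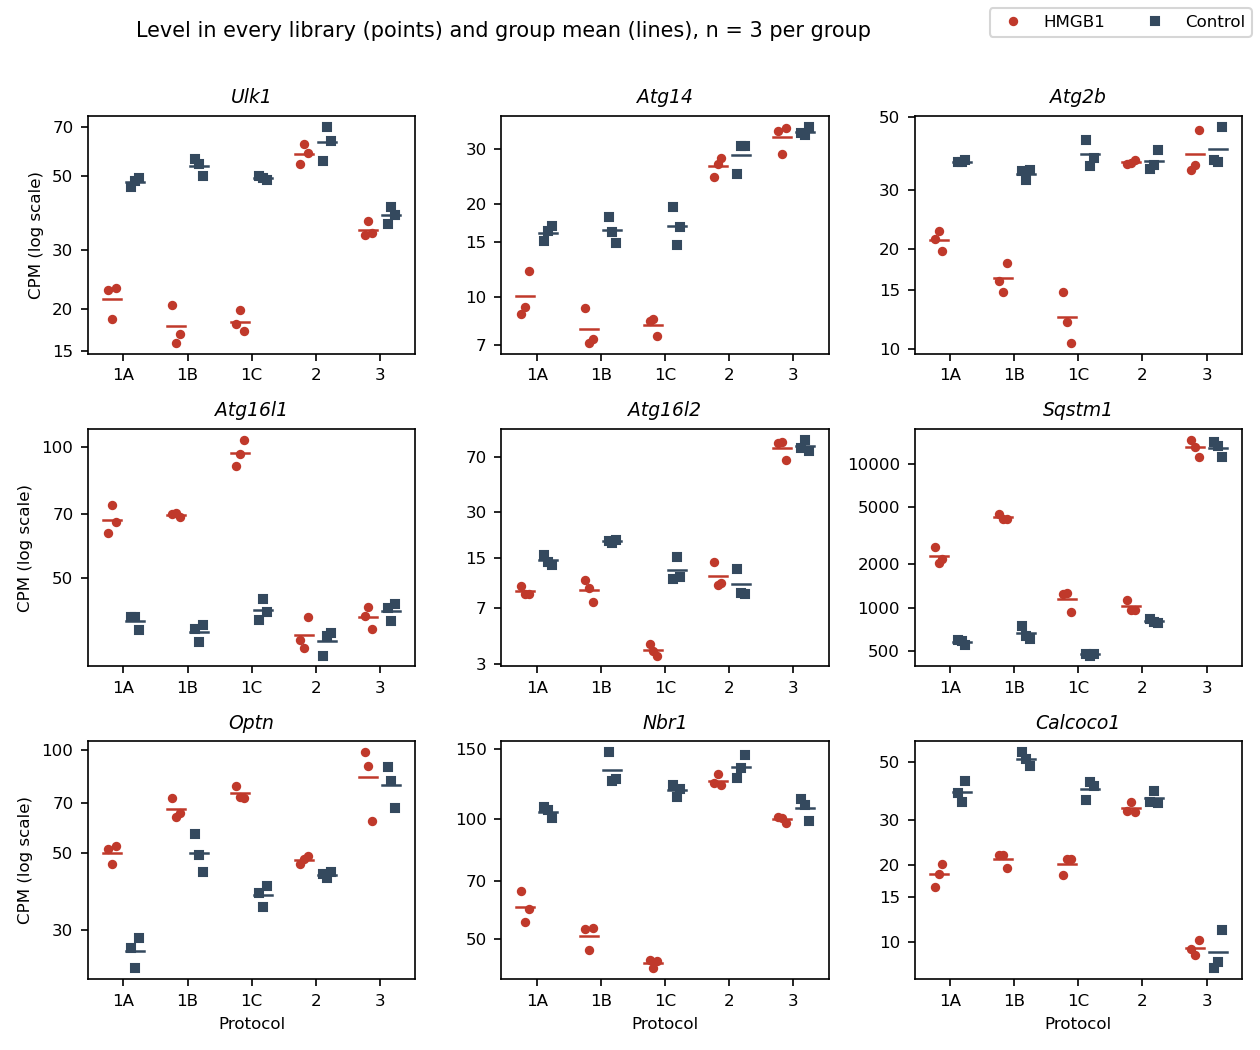
Level in each library (CPM, log axis) of 9 autophagy genes in the 5 protocols, with HMGB1 left of Control and 1 point per library. Ulk1, Atg14, Atg2b, Atg16l2, Nbr1 and Calcoco1 sit lower and Atg16l1, Sqstm1 and Optn higher in HMGB1 libraries of the 3 neonatal protocols, while Sqstm1 lies at 11194 to 14737 CPM in Protocol 3 with or without HMGB1.

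In the adult cells of Protocol 2 no autophagy gene passed in either direction, against a background of 1.21% higher and 0.283% lower of 15564 genes, and 6 of the 38 were at unadjusted p below 0.05. The DESeq2 Wald test called 1 of them. Sqstm1 had 1126, 967 and 961 CPM in HMGB1 libraries, against 835, 790.0 and 782 CPM in Control libraries. The treated libraries all lay above the Controls, at 0.34 ± 0.08 on the log2 scale (edgeR, adjusted p = 0.0615). Libraries with the same replicate number deviated together in Protocols 2 and 3. With the replicate number as a block, 4 genes passed in Protocol 2: Sqstm1 was higher (log2 fold change 0.33, adjusted p = 3.78e-10), and Atg13 (-0.21, adjusted p = 0.00763), Atg12 (-0.17, adjusted p = 0.00862) and Map1lc3b (-0.15, adjusted p = 0.0121) were lower. The background of the blocked fit was 4.63% higher and 3.32% lower. In the DESeq2 Wald test the gene that passed was Sqstm1, with adjusted p = 0.00125.

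In Protocol 3 none of the 38 genes passed either, against a background of 0.123% higher and 0% lower of 15401 genes, and 2 were at unadjusted p below 0.05. The DESeq2 Wald test called 0 of them. Sqstm1 had 14737, 13096 and 11194 CPM with HMGB1, against 14258, 13368 and 11218 CPM in Control, levels that overlapped fully (0.02 ± 0.11 on the log2 scale, adjusted p = 0.995). With the replicate block, Rb1cc1 alone passed, at 0.26 (adjusted p = 0.0362), against a background of 1.7% higher and 0.468% lower. Without the block, Rb1cc1 had 48.0, 48.7 and 51.4 CPM in HMGB1 libraries, against 42.4, 45.7 and 37.5 CPM in Control libraries, at 0.26 ± 0.09 (adjusted p = 0.729). Across the 38 genes, log2 fold changes ran between -0.21 and 0.34 in Protocol 2 and between -0.21 and 0.26 in Protocol 3. Their SD was 0.112 and 0.0968 in Protocols 2 and 3, against 0.655, 0.792 and 0.823 in 1A, 1B and 1C. The medians were -0.07 in Protocol 2 and -0.02 in Protocol 3, where those of all genes were 0.00 and -0.01.

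Whether the responses differed between protocols was tested on the difference itself, in 1 fit of all 30 libraries. The comparisons that involve Protocol 1 share its libraries, so their calls are not independent. The response of Protocol 2 was above that of Protocol 1, the mean of 1A, 1B and 1C, for 20 of the 38 genes and below it for 11, against a background of 22.9% higher and 20.6% lower of 18182 genes. The response of Protocol 3 was above that of Protocol 1 for 19 genes and below it for 11, against 20.2% higher and 22.5% lower. Between Protocols 3 and 2 the difference passed for none of the 38 genes, against 0.022% higher and 0.346% lower, with 2 at unadjusted p below 0.05 and 0 passing the DESeq2 Wald test. The direction of most differences was that of a response near 0 in adult cells set against a rise or a fall in neonatal cells.

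The largest differences were those of the genes named above. For Sqstm1, the response differed by -1.97 ± 0.13 in Protocol 3 (adjusted p = 4.90e-14) and by -1.64 ± 0.13 in Protocol 2 (adjusted p = 4.10e-12) from that of Protocol 1, and was lower in both. For Ulk1, the response was higher by 1.25 ± 0.11 in Protocol 3 (adjusted p = 4.07e-11) and by 1.28 ± 0.11 in Protocol 2 (adjusted p = 1.22e-11). Both genes thus responded in Protocol 1 beyond what the adult protocols showed. Atg16l2 followed with 1.13 ± 0.17 in Protocol 3 and 1.35 ± 0.18 in Protocol 2, and Atg2b with 1.10 ± 0.13 and 1.14 ± 0.13 (edgeR, largest adjusted p of these 4 values 1.71e-06). Calcoco1 differed by 1.16 ± 0.14 between Protocols 3 and 1 (adjusted p = 1.32e-08). With 1A alone as Protocol 1, the differences of Gabarapl1 were 0.03 for Protocol 3 (adjusted p = 0.929) and 0.01 for Protocol 2 (adjusted p = 0.998), against 0.36 and 0.34 with the mean of the 3.

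The responses were also compared within the neonatal protocols. Between 1B, without GM-CSF, and 1A, the difference was higher for 1 gene and lower for 2, against a background of 3.7% higher and 3.21% lower. This count of 3 was 5 in the DESeq2 Wald test, 5 with only the compared libraries, 6 with the replicate block and 2 to 5 on leaving out 1 library, with 5 without the second HMGB1 library of 1A, the third Control library of 1B or the first HMGB1 library of 1B. It was 2 without the first or second Control or the first HMGB1 library of 1A, and without the first or second Control or the second or the third HMGB1 library of 1B. Sqstm1 responded more in 1B than in 1A, by 0.69 ± 0.16 (edgeR, adjusted p = 0.00455), Nbr1 fell further in 1B, at -0.58 ± 0.11 (adjusted p = 3.55e-04), and Ulk1 fell further, at -0.44 ± 0.14 (adjusted p = 0.0496). The last call was lost in 12 of 18 alternatives, with adjusted p up to 0.166. Optn had 72.3, 63.7 and 65.4 CPM with HMGB1 in Protocol 1B, against 57.1, 49.5 and 44.1 CPM in Control, and its difference between the responses of 1B and 1A, at -0.53 ± 0.17, missed the threshold (adjusted p = 0.0533).

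Between 1C, with 21 days of culture, and 1A, the difference was higher for 4 genes and lower for 8, against a background of 5.46% higher and 8.53% lower. That background split depended on scaling: 993 genes were higher and 1551 lower as reported, and 1215 higher and 1032 lower with DESeq2 size factors. Sqstm1 responded less in 1C than in 1A, at -0.70 ± 0.16 (edgeR, adjusted p = 0.00233), the reverse of the difference seen for 1B. Further falls in 1C were those of Atg16l2, at -1.07 ± 0.24 (adjusted p = 0.00235), Atg2b, at -0.84 ± 0.16 (adjusted p = 5.02e-04), Nbr1, at -0.64 ± 0.11 (adjusted p = 7.51e-05), and Gabarapl1, at -0.59 ± 0.14 (adjusted p = 0.00374). Ulk2 also passed, at -0.45 ± 0.14, but its call was lost in 7 of 18 alternatives, with adjusted p up to 0.119. Rises that went further in 1C were those of Atg16l1, by 0.43 ± 0.11 (adjusted p = 0.00608), Ambra1, by 0.36 ± 0.09 (adjusted p = 0.00846), and Atg3, by 0.34 ± 0.09 (adjusted p = 0.00769), the last 2 of which were lost without the filter on low counts (adjusted p = 0.0842 and 0.107).

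**Figure D4:**
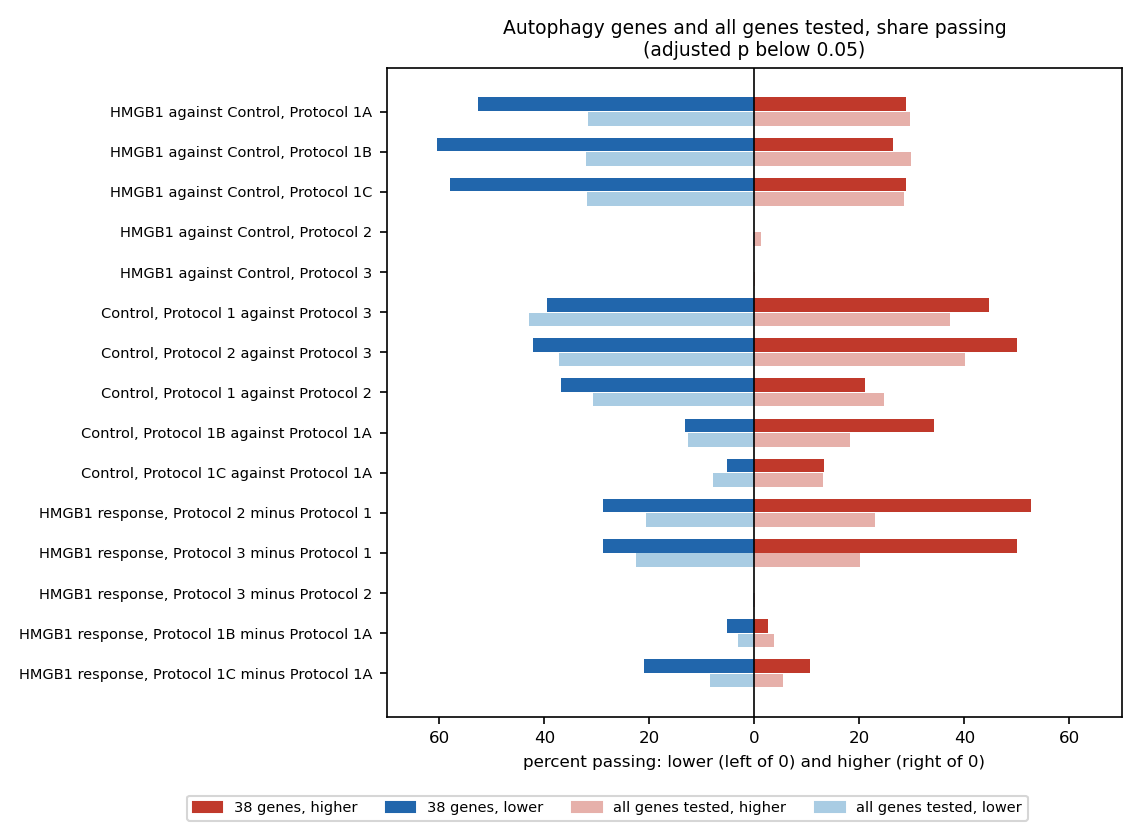
Percent of the 38 autophagy genes and of all genes tested that were higher or lower at adjusted p below 0.05 in each of the 15 comparisons. The 38 genes exceed all genes in the lower direction of the 3 neonatal HMGB1 comparisons, where 20, 23 and 22 of 38 were lower, and show none in the HMGB1 comparisons of Protocols 2 and 3, fitted without the replicate block.

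The untreated cells of the protocols were compared next, to see how culture and age go with the level of these genes. Control cells of Protocol 1 were higher than those of Protocol 3 for 17 of the 38 genes and lower for 15, against a background of 37.3% higher and 42.9% lower of 17033 genes. Control cells of Protocol 2 were higher than those of Protocol 3 for 19 and lower for 16, against 40.1% higher and 37.2% lower. These 2 comparisons share the Protocol 3 Controls. The median log2 fold change of the 38 genes was 0.01 and 0.09 for Protocols 1 and 2 against Protocol 3, where that of all genes was -0.12 and 0.08. With only the compared libraries in the fit, the median of all genes was 0.03 for Protocol 1. Neutrophil markers summed to at most 5.37 CPM in the Controls of Protocols 1 and 2, against 339 CPM or more in those of Protocol 3.

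Single genes differed widely. Sqstm1 had 463 to 748 CPM in Protocol 1 Controls and 782 to 835 CPM in Protocol 2 Controls, against 14258, 13368 and 11218 CPM in Protocol 3 Controls. Its log2 fold change was -4.57 ± 0.07 for Protocol 1 against Protocol 3 (edgeR, adjusted p = 2.80e-21) and -4.10 ± 0.10 for Protocol 2 (adjusted p = 1.55e-17). No cultured library of either treatment came near the uncultured level, the highest being 4452 CPM in a Protocol 1B HMGB1 library. Of the exon bases of Sqstm1, 17.3% overlap Mrnip, whose mean of 1.38 CPM without TMM scaling is small beside it. Atg2a had 57.5 to 73.9 CPM in Protocol 1 Controls and 59.8 to 67.8 CPM in Protocol 2 Controls, against 411, 416 and 524 CPM in Protocol 3 Controls, and was lower in both, at -2.82 ± 0.07 and -2.93 ± 0.10 (adjusted p = 1.16e-18 and 4.62e-16). Atg16l2 had 10.9 to 19.8 CPM in Protocol 1 Controls and 8.59 to 12.7 CPM in Protocol 2 Controls, against 79.3, 90.8 and 76.3 CPM in Protocol 3 Controls, and was lower in both, at -2.49 ± 0.10 and -3.12 ± 0.15 (adjusted p = 1.99e-14 and 3.12e-13). Map1lc3a, another ATG8 gene, was lower in both, at -1.43 ± 0.13 in Protocol 1 (adjusted p = 1.62e-08) and -1.27 ± 0.17 in Protocol 2 (adjusted p = 2.76e-06).

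Other genes were higher in cultured cells. Bnip3l had 113 to 184 CPM in Protocol 1 Controls and 157 to 160.3 CPM in Protocol 2 Controls, against 16.8, 19.0 and 19.9 CPM in Protocol 3 Controls, and was higher by 2.86 ± 0.10 and 3.00 ± 0.11 (edgeR, adjusted p = 3.01e-16 and 1.33e-15). Atg4a, a protease, was at 13.7 to 22.4 CPM in Protocol 1 Controls and 20.8 to 23.05 CPM in Protocol 2 Controls, against 3.58, 3.33 and 3.15 CPM in Protocol 3 Controls, higher by 2.39 ± 0.11 in Protocol 1 (adjusted p = 8.84e-14) and by 2.60 ± 0.13 in Protocol 2 (adjusted p = 1.85e-13). The lipid kinase core and Atg7 were on the same side. Pik3r4 was higher by 2.22 ± 0.08 and 2.25 ± 0.09, Pik3c3 by 1.96 ± 0.11 and 1.73 ± 0.12, and Atg7 by 2.22 ± 0.09 and 2.30 ± 0.10 in Protocols 1 and 2 (largest adjusted p of these 6 values 4.30e-11). Calcoco1, Atg13 and Atg9a were also higher in both, by 2.16 ± 0.10, 1.85 ± 0.09 and 1.78 ± 0.10 in Protocol 1. Ulk2 was higher by 1.198 ± 0.08 in Protocol 1 and Ulk1 by 0.34 ± 0.07 (adjusted p = 4.66e-11 and 1.30e-04).

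Genes of the same complex therefore lay on different sides in the Controls. Of the class III complexes, Pik3c3 and Pik3r4 were higher in cultured cells and Becn1, Atg14, Uvrag and Ambra1 lower. The log2 fold change of Protocol 1 against Protocol 3 was -1.42 ± 0.08 for Uvrag and -1.10 ± 0.09 for Atg14 (edgeR, adjusted p = 5.75e-13 and 2.26e-10). Of the ATG8 family, Gabarap, Map1lc3b and Gabarapl2 were higher in cultured cells, by 0.88 ± 0.06, 1.03 ± 0.07 and 0.73 ± 0.07 in Protocol 1, and Map1lc3a lower. Map1lc3a made up between 3.84% and 5.80% on average of the per-kilobase ATG8 level in the Controls of the 4 cultured protocols, against 17.1 ± 0.998% (SD, n = 3) in Protocol 3 Controls. Optn, higher with HMGB1 in neonatal cells, was lower in Protocol 1 Controls than in Protocol 3 Controls, at -1.16 ± 0.08 (adjusted p = 2.79e-11). Rb1cc1 did not pass in either, at -0.07 ± 0.09 in Protocol 1 (adjusted p = 0.467) and -0.08 ± 0.11 in Protocol 2 (adjusted p = 0.501). Calls near the threshold depended on single settings: that of Atg2b, lower at -0.20 ± 0.08 in Protocol 1, was lost in 11 of 19 alternatives, with adjusted p up to 0.508.

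**Figure D5:**
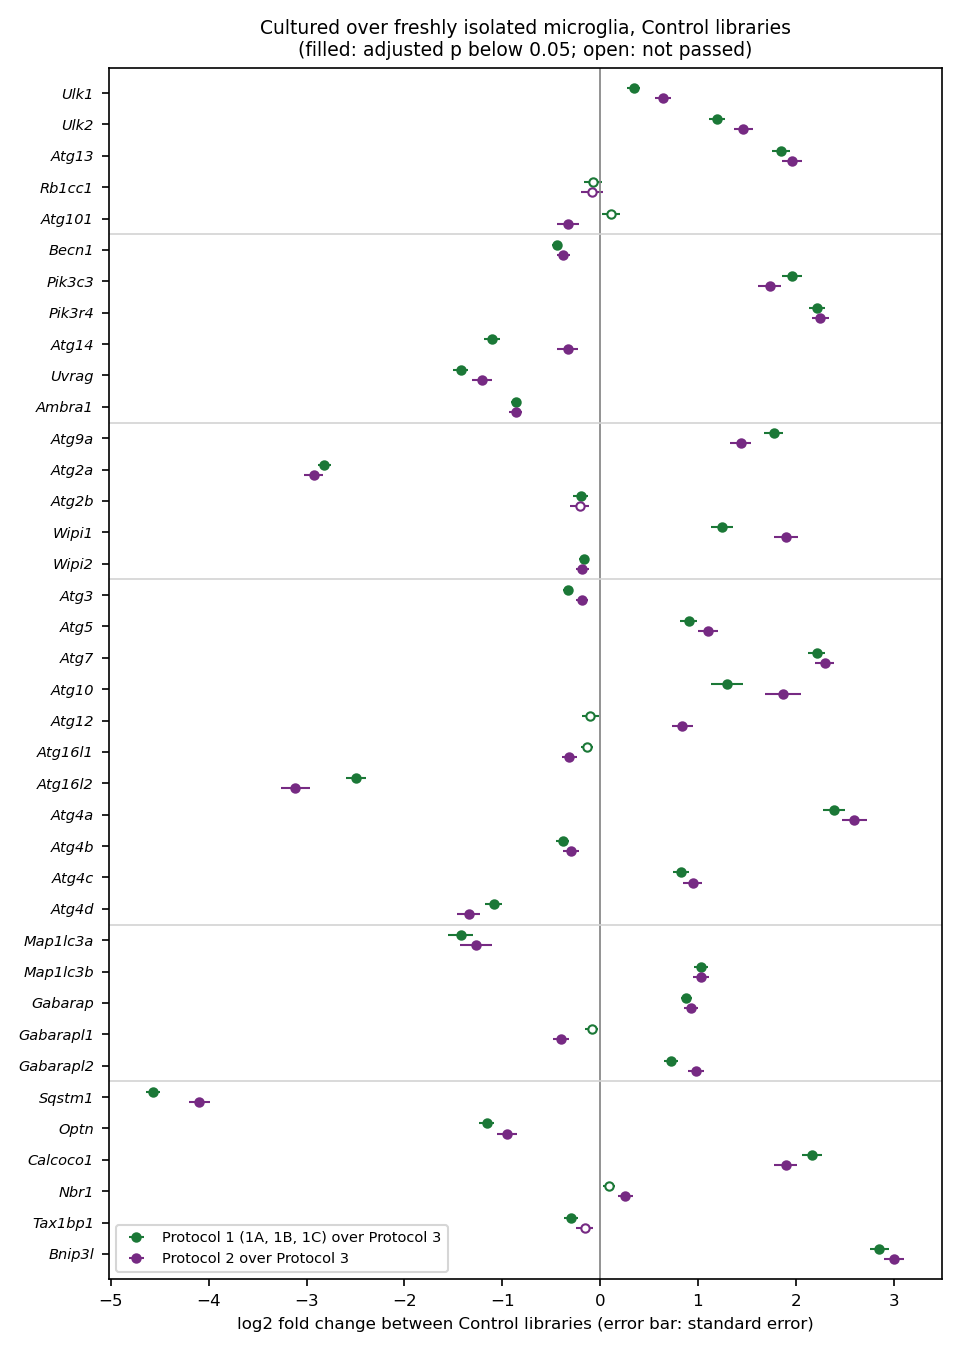
Log2 fold change (with SE) of each of the 38 autophagy genes in Control cells of Protocol 1 against Protocol 3 and of Protocol 2 against Protocol 3. Bnip3l, Atg4a, Pik3r4 and Atg7 lie at the high end of both and Sqstm1, Atg2a and Atg16l2 at the low end, with Sqstm1 at -4.57 and -4.10.

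Differences between the 2 kinds of cultured cells were smaller in size. Between Protocol 1 and Protocol 2 Controls, 8 genes were higher and 14 lower in Protocol 1, against a background of 24.6% higher and 30.7% lower, and none of the 22 reached a log2 fold change of 1 in size, against a background of 22.4% of all genes that passed and did. The count is 14 rather than 22 without the third Control library of Protocol 2. Atg12 had 43.4 to 66.8 CPM in Protocol 1 Controls, against 106, 116 and 115 CPM in Protocol 2 Controls, and was lower, at -0.94 ± 0.08 (edgeR, adjusted p = 6.00e-09). Also lower were Atg14, at -0.77 ± 0.09 (adjusted p = 2.81e-07), Wipi1, at -0.65 ± 0.09 (adjusted p = 4.42e-06), and Sqstm1, at -0.47 ± 0.07 (adjusted p = 1.74e-05). Those higher in Protocol 1 were led by Atg16l2, at 0.62 ± 0.12 (adjusted p = 2.71e-04), and Atg101, at 0.44 ± 0.10 (adjusted p = 6.60e-04). Gabarapl1 passed as higher, at 0.31 ± 0.07, but was at -0.15 with 1A alone as Protocol 1 (adjusted p = 0.161).

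GM-CSF and time in culture were compared within the neonatal Controls. Without GM-CSF (1B), 13 of the 38 genes were higher and 5 lower than in 1A, against a background of 18.2% higher and 12.6% lower. On leaving out 1 Control library at a time, 9 to 12 were higher and 2 to 4 lower, with 3 lower without the second library of 1A or of 1B and 2 lower without the third of 1A or of 1B. The genes higher in 1B included all 5 ATG8 genes and 4 of the 6 receptors. Fibroblast and mural markers summed to 26.0 to 87.3 CPM in 1B Controls, with 4 of 7 over 1 CPM and 1 at 0, against 1.56 to 3.34 CPM in 1A Controls, with 0 over 1 CPM and 2 at 0. The sum of 5 neuron markers was 5.42 to 9.85 CPM in 1B Controls, with 3 of 5 over 1 CPM and 0 of them at 0 throughout, against 0.282 to 0.818 CPM in 1A Controls, with 0 over 1 CPM and 1 at 0, and the part of these cells was not tested. Gabarapl1 had 168, 148 and 135 CPM in 1B Controls, against 86.2, 75.7 and 94.9 CPM in 1A Controls, a difference of 0.85 ± 0.09 (edgeR, adjusted p = 2.32e-07). Optn had 57.1, 49.5 and 44.1 CPM in 1B Controls, against 26.5, 23.2 and 28.3 CPM in 1A Controls, at 0.98 ± 0.10 (adjusted p = 4.97e-07). Ulk2 had 98.2, 95.7 and 92.2 CPM in 1B Controls, against 53.7, 53.9 and 55.5 CPM in 1A Controls, at 0.85 ± 0.09 (adjusted p = 9.04e-07). All 3 genes were apart between the groups. The call of Gabarap, at 0.19 ± 0.07, was lost in 9 of 12 alternatives, with adjusted p up to 0.196. Atg9a was lower in 1B than in 1A, at -0.66 ± 0.10 (adjusted p = 3.77e-05).

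After 21 days (1C), 5 genes were higher and 2 lower than in 1A, against a background of 13.1% higher and 7.91% lower. Fibroblast and mural markers summed to 41.1 to 89.7 CPM in 1C Controls, against 1.56 to 3.34 CPM in 1A Controls. Optn had 38.5, 35.0 and 40.3 CPM in 1C Controls and was higher by 0.56 ± 0.10 than in 1A (edgeR, adjusted p = 6.48e-04), Gabarapl1 by 0.53 ± 0.09 (adjusted p = 1.37e-04) and Ulk2 by 0.50 ± 0.09 (adjusted p = 6.45e-04). These are genes that were also higher in 1B, a comparison that uses the same 1A Controls. Atg9a was lower, at -0.72 ± 0.10 (adjusted p = 3.19e-05). Sqstm1 was lower, at -0.27 ± 0.09, a call lost in 5 of 12 alternatives with adjusted p up to 0.128. The count of 7 fell to 4 without the first or the second Control library of 1A or without the first Control library of 1C.

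Other genes of the pathway, from lists of 59 named genes, moved with HMGB1 in the same 3 protocols. Of the 58 tested there, 17 were higher and 25 lower in 1A, 16 and 29 in 1B, and 10 and 29 in 1C, with medians of -0.01, -0.21 and -0.26. The background was 29.7% higher and 31.6% lower in 1A, 29.8% and 32% in 1B, and 28.4% and 31.8% in 1C, so the share of lower genes was above it and that of higher genes near or below it. Tfeb, a master regulator of lysosomal and autophagy genes, fell with log2 fold changes of -2.40 ± 0.12, -2.38 ± 0.18 and -2.99 ± 0.16 in 1A, 1B and 1C (edgeR, adjusted p between 2.54e-09 and 6.17e-06). Foxo3, another transcription factor of autophagy genes, fell with -1.14 ± 0.07, -1.85 ± 0.10 and -2.24 ± 0.10 (adjusted p between 6.52e-09 and 5.84e-08). Mitf, of the same family as Tfeb, rose with 1.06 ± 0.08, 1.32 ± 0.07 and 1.06 ± 0.10 (adjusted p between 3.23e-08 and 2.12e-06), so this family was split. Tbk1, the kinase that phosphorylates receptors such as p62 and optineurin, rose with 1.34 ± 0.06, 1.46 ± 0.07 and 1.59 ± 0.08 (adjusted p between 2.57e-10 and 2.35e-08). Of the 20 genes of the mTORC1, AMPK and TFEB list, 5, 8 and 4 were higher and 10, 9 and 10 lower in 1A, 1B and 1C.

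Fusion of the autophagosome with the lysosome was represented by 13 genes, of which 4, 3 and 2 were higher and 5, 7 and 7 lower in 1A, 1B and 1C. The background for this and the next lists was 29.7%, 29.8% and 28.4% higher and 31.6%, 32% and 31.8% lower. In 1A the fusion genes were near it, at 30.8% higher and 38.5% lower. In 1B and 1C 53.8% of them were lower. Plekhm1, an adaptor between late endosomes or lysosomes and the fusion machinery, fell with -1.09 ± 0.07, -1.62 ± 0.06 and -1.34 ± 0.10 (edgeR, adjusted p between 4.29e-09 and 3.81e-07), and Vamp8, a fusion protein of the lysosome side, rose with 0.97 ± 0.08, 0.77 ± 0.06 and 1.01 ± 0.13 (adjusted p between 1.01e-07 and 5.16e-05). Among the 9 other core genes, 3, 2 and 2 were higher and 4, 6 and 5 lower in 1A, 1B and 1C. Atg9b, a relative of Atg9a, fell with -2.38 ± 0.25, -1.96 ± 0.39 and -2.58 ± 0.34 (adjusted p between 1.44e-06 and 0.00122), on counts of 5 to 35 in HMGB1 libraries of 1B, against 72 to 92 in Control libraries. Irgm1, an interferon-induced GTPase, rose with 2.49 ± 0.41, 3.85 ± 0.15 and 3.32 ± 0.34 (adjusted p between 1.23e-07 and 0.00675). The 16 tested genes of other selective autophagy had 5, 3 and 2 higher and 6, 7 and 7 lower. In 1A that is 31.2% higher and 37.5% lower, also near the background. In Protocols 2 and 3 none of the 58 and 57 tested passed edgeR's test without the replicate block, with 7 and 3 at unadjusted p below 0.05. Calls with the block were not listed for these genes. The background was 1.21% higher and 0.283% lower in Protocol 2 and 0.123% and 0% in Protocol 3. In Protocol 1 Controls, 29 of 59 had higher levels than in those of Protocol 3 and 24 had lower ones, against a background of 37.3% higher and 42.9% lower. The largest differences were those of Atg9b (3.38 ± 0.26, on 5 to 11 counts per Protocol 3 library), Tecpr1 (2.62 ± 0.08) and Stx17 (2.54 ± 0.12) on the high side and Retreg1 (-2.82 ± 0.07) and Vmp1 (-2.58 ± 0.07) on the low side.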

How the data were processed

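RNA of mouse microglia was sequenced in bulk from 30 libraries. Per the submitters' notes, the authors used the aligner HISAT2 2.0.5, then featureCounts 1.5.0-p3, to make the whole-number counts per gene that were deposited. The genome build and the strand setting are not given in the sources used here, and 37 of the 38 gene positions match GENCODE M21. All fits used R 4.3.3. Genes were filtered by filterByExpr and scaled by TMM, and edgeR 4.0.16 gave robust quasi-likelihood F tests, with statmod 1.5.0 and limma 3.58.1 as dependencies. P-values were BH-adjusted over all genes of a comparison at a threshold of 0.05. Responses were fitted on the 6 libraries of a protocol, Controls on 15 libraries and differences between responses on 30. The DESeq2 1.42.0 Wald test and size factors, no filter beyond 1 count, the replicate block and leaving out each library were alternatives. On simulated data, 79% of changes of 1 and 98% of changes of 2 on the log2 scale were recovered for the Protocol 1A response over 13227 genes. Changes of 1 were recovered at 72% for the difference of responses of 3 minus 1. False calls were 12 of 189 for the 1A response and 17 of 195 for that of Protocol 3. The simulation changed 100 genes at each size, far fewer than passed in the real 1A response, so it did not probe scaling. Libraries with the same replicate number had correlated deviations over 0.1 in every pair of Protocols 2 (0.180 to 0.288) and 3 (0.131 to 0.186), so the numbers were taken to pair them, a pairing inferred from these data. The 38 genes and the lists were chosen with earlier results of these data known, and the genes given in full are up to 4 rises, 4 falls and 3 genes that did not pass in each comparison, by log2 fold change or, for the last kind, by level.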

Additional observations from a re-analysis of the deposited data

Results flagged for a closer look

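For the following genes the HMGB1 response differed between protocols in the test of the difference itself (edgeR's quasi-likelihood test with BH adjustment over all genes of the 30-library fit, 4 genes at most per pair of protocols). Differences are on the log2 scale. Between Protocols 1B and 1A, Sqstm1 differed by 0.69 (adjusted p = 0.00455), Nbr1 by -0.58 (adjusted p = 0.000355) and Ulk1 by -0.44 (adjusted p = 0.0496). Between 1C and 1A, Atg16l2 differed by -1.07 (adjusted p = 0.00235), Atg2b by -0.84 (adjusted p = 0.000502), Sqstm1 by -0.70 (adjusted p = 0.00233) and Nbr1 by -0.64 (adjusted p = 7.51e-05). Sqstm1 thus differed from 1A in opposite directions in 1B and 1C, in comparisons that share the 1A libraries.

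Between Protocol 2 and Protocol 1, Sqstm1 differed by -1.64 (adjusted p = 4.10e-12), Atg16l2 by 1.35 (adjusted p = 2.94e-07), Ulk1 by 1.28 (adjusted p = 1.22e-11) and Atg2b by 1.14 (adjusted p = 7.16e-09). Between Protocol 3 and Protocol 1, Sqstm1 differed by -1.97 (adjusted p = 4.90e-14), Ulk1 by 1.25 (adjusted p = 4.07e-11), Calcoco1 by 1.16 (adjusted p = 1.32e-08) and Atg16l2 by 1.13 (adjusted p = 1.71e-06).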

How the results depend on the processing

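Age and isolation, with culture and an HMGB1 dose stated only for Protocol 3, cannot be told apart between Protocol 1 and the adult protocols, nor culture and isolation between Protocols 2 and 3, and 3 libraries per group limit every test. Under the alternatives, 2161 values stayed the same, which pools counts within 1.5 times with log2 fold changes that kept their call. These fold changes were only those of the genes given in full for each comparison. Among the remaining values, 26 counts moved by over 1.5 times, 32 values lost and 25 gained a call, and 1 reversed. The causes were not tested. Over all 38 genes, 11 of 22 calls were lost in 1 or more alternatives for Controls of 1 against 2. For Controls of 1B against 1A it was 9 of 18, and for the responses of 2 minus 1 it was 8 of 31. With a log2 fold change of at least 1 required, which by construction leaves fewer genes, the HMGB1 comparisons of 1A, 1B and 1C kept 3, 8 and 11 of the 38 genes. Of all genes, 24.2%, 26.6% and 31.5% met that rule there. Under that rule the Control comparisons kept 20 (1 against 3), 19 (2 against 3) and 0 (1 against 2, 1B against 1A and 1C against 1A), and the differences of responses 5 (2 minus 1), 7 (3 minus 1), 0 (1B minus 1A) and 1 (1C minus 1A). Of all genes, 22.4% met it for 1 against 2, and their share was not computed for the rest. The median absolute log2 fold change of all genes was 1.27 (1 against 3) and 1.29 (2 against 3). That of the 38 genes was 1.06 and 1.01, so the 20 and 19 genes are not read as a trait of the 38. In the DESeq2 Wald test 1 gene passed in Protocol 2 and 5 in 1B minus 1A. Without the filter 1 passed in Protocol 2, and with only the libraries compared 5 in 1B minus 1A. The reversed value was Gabarapl1 in Controls of Protocol 1 against 2, at -0.15 with 1A alone as Protocol 1. The median of all genes for Protocol 1 against 3 moved from -0.12 to 0.03 with only the compared libraries and to -0.28 without the filter, and in both 19 of the 38 genes were higher and 13 lower, against 17 and 15 as reported.

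With the replicate number as a block, 4 genes passed in Protocol 2, 1 in Protocol 3 and 6 in 1B minus 1A, and the block moved no other count of calls by over 1.5 times. The numbers were not taken to pair the neonatal libraries, where the lowest same-number correlation was 0.0180 (1A), 0.0962 (1B) and 0.0519 (1C). In 1B the first pair lay just below 0.1 and the others were at 0.234 and 0.307. Pairing in 1B therefore remains possible. The block left 31, 32 and 33 genes passing in 1A, 1B and 1C. Every library of 1B and 1C, but not of 1A, correlated best with its own number. Leaving out 1 library at a time gave 29 to 31 genes for Protocol 1A, 30 to 33 for Protocol 1B, 31 to 33 for Protocol 1C and 0 for Protocols 2 and 3. For Controls it gave 31 to 32 (1 against 3), 31 to 35 (2 against 3), 14 to 23 (1 against 2), 13 to 14 (1B against 1A) and 4 to 7 (1C against 1A). For differences of responses it gave 29 to 31 (2 minus 1 and 3 minus 1), 0 (3 minus 2), 2 to 5 (1B minus 1A) and 11 to 13 (1C minus 1A). The value 5 came without the second HMGB1 library of 1A, the third Control or the first HMGB1 library of 1B, 14 without the third Control library of Protocol 2, and 4 without the first or the second Control library of 1A or the first of 1C.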
